A study of Mus musculus with 8 samples.

Results

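Matrix metalloproteinases and their tissue inhibitors were followed in basal epidermal cells of mouse back skin as 8 genes, the proteases Mmp13, Mmp3, Mmp10, Mmp9 and Mmp14 and the inhibitors Timp1, Timp2 and Timp3. They were chosen by symbol, with earlier results of these data known. All 8 were measured, as 8 of the 17097 genes of the array. They took 17 of the 28898 probe sets that carry a single gene symbol. Where a gene had several probe sets, the one with the highest mean over the 8 arrays stood for it. The mice were of the outbred CD1 strain, with no allele or transgene named in the labels and no age given. The expanded group (EXPD4 in the labels) held 3 mice whose back skin had been stretched by force, taken at day 4. The second group held 2 mice given TPA, short for 12-O-tetradecanoylphorbol-13-acetate, a plant-derived activator of protein kinase C of the phorbol ester class, with no dose or time in the labels. The control group held 3 untreated mice. Labels number the arrays of each group as biological replicates, and each is read here as 1 mouse. Each mouse gave 1 Affymetrix array from 300 sorted cells that carried the integrin ITGA6 and lacked CD34, a gate that takes interfollicular and infundibulum cells and leaves out the hair follicle bulge.

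Metalloproteinases are zinc enzymes that cut collagens, laminins and other matrix proteins and release growth factors and receptors from the cell surface. Most are secreted as inactive precursors and switched on by removal of a propeptide, and the tissue inhibitors block them by binding their active site. In skin several of these enzymes are known from the migrating basal keratinocytes of wound edges, and phorbol esters are a classical inducer of some of them in cultured cells through AP-1, the factor formed by FOS and JUN proteins.

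Signals are given as deposited, from RMA and in log2 units, where a step of 1 is a doubling. They compare 1 probe set between arrays, and give no order of abundance between genes. Detection calls were not used here, so background was read from 79 smell, vomeronasal and trace amine receptor genes, whose 95th percentile lay between 6.37 and 6.55 on the 8 arrays. A gene is called higher or lower where limma's adjusted p, over all 17097 genes, was under 0.05. In such bulk samples, fewer cells that express a gene and less RNA per cell cannot be told apart.

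The arrays labelled TPA went against what is known of TPA for 3 genes picked as a check. Krt6a and Krt16, keratins of hyperproliferative epidermis, and Odc1, ornithine decarboxylase, are known to be induced by TPA in mouse skin. Odc1 stood at 8.99 ± 0.09 in TPA arrays (SD, n = 2), against 11.34 ± 0.02 in control arrays (SD, n = 3). Krt6a and Krt16 were also called lower in TPA than in control arrays, with differences of -0.69 and -0.89. Directions below follow the labels, and TPA arrays or TPA skin means those labelled so. With the TPA and control labels exchanged, each difference between those groups would change its sign, and the comparison of expanded with control arrays would be the one given below as expanded minus TPA, in which 2 of the 8 genes were lower and 0 higher.

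The basal markers Krt5, Krt14, Itga6, Itgb4, Trp63 and Col17a1 were at 11.52 or higher on all 8 arrays. Of 4 bulge markers Cd34, Lgr5 and Lhx2 were under the background limit on all 8, but Nfatc1 was above it on all 8, at 9.35 to 9.92. In TPA arrays 1 of these 4 bulge markers was called higher than in control arrays. Of these 6 basal markers 2 were called lower in both comparisons with control. Itga6, the gene of the sorted integrin, averaged 11.80 in expanded, 11.58 in TPA and 12.27 in control arrays, and its partner Itgb4 averaged 12.19, 12.25 and 12.57 in the same order. Markers of differentiated keratinocytes were also present, with a summed log2 signal of 14.25 to 14.35 in expanded arrays, 14.07 to 14.21 in TPA arrays and 12.73 to 13.54 in control arrays. Of these 6 markers, Krt1, Krt10 and Krtdap were called higher in both comparisons with control, and Lor and Flg were under the limit on all 8 arrays. Ivl, above the limit on all 8, was called in neither comparison and lay highest in control arrays. It was at 8.13 to 8.32 in expanded, 7.82 to 8.27 in TPA and 8.33 to 8.67 in control arrays. The part of these basal and differentiation markers in the results below was not tested. The summed signal of 6 endothelial markers was 9.05 to 9.89 in expanded arrays, 8.83 to 8.91 in TPA arrays and 9.07 in 2 of the control arrays, but 10.92 in control replicate 1. That of 4 Langerhans cell markers was 8.93 to 8.99 in expanded, 8.87 to 8.93 in TPA and 9.19 to 10.4 in control arrays. Of these 4 only H2-Ab1 was called, lower in both comparisons with control. Cd207 was under the limit on all 8 arrays. H2-Aa was at 7.40 to 7.71 on all 8, and Cd74 was highest in control replicate 3, at 8.46. Of 4 T cell markers Cd3e, Cd3g and Cd3d were under the limit on all 8 arrays, and Thy1 alone was above it and higher in both comparisons.

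Mmp13, Mmp3, Mmp10, Mmp9, Mmp14 and Timp1 were lower in expanded than in control skin, and the same 6 genes were lower in TPA than in control skin. Timp3 rose in TPA skin, and Timp2 passed the test in no comparison. Between expanded and control arrays 6 of 8 genes were called lower and 0 higher, where 11.5% of all genes were called, 5.78% lower and 5.69% higher. Between TPA and control arrays 6 of 8 were lower and 1 higher, where 20.8% of all genes were called, 10.6% lower and 10.2% higher. The arrays did not overlap for 7 of the 8 genes in the first comparison, beside 30.0% of all genes, and for 8 of 8 in the second, beside 45.8%. The median difference of the 8 genes was -2.24 between expanded and control arrays and -2.47 between TPA and control arrays, while the medians of all genes were 0.01 and -0.03. Both comparisons use the same 3 control arrays. The 8 genes were chosen with earlier results of these data known, so these counts are a description.

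**Figure D1:**
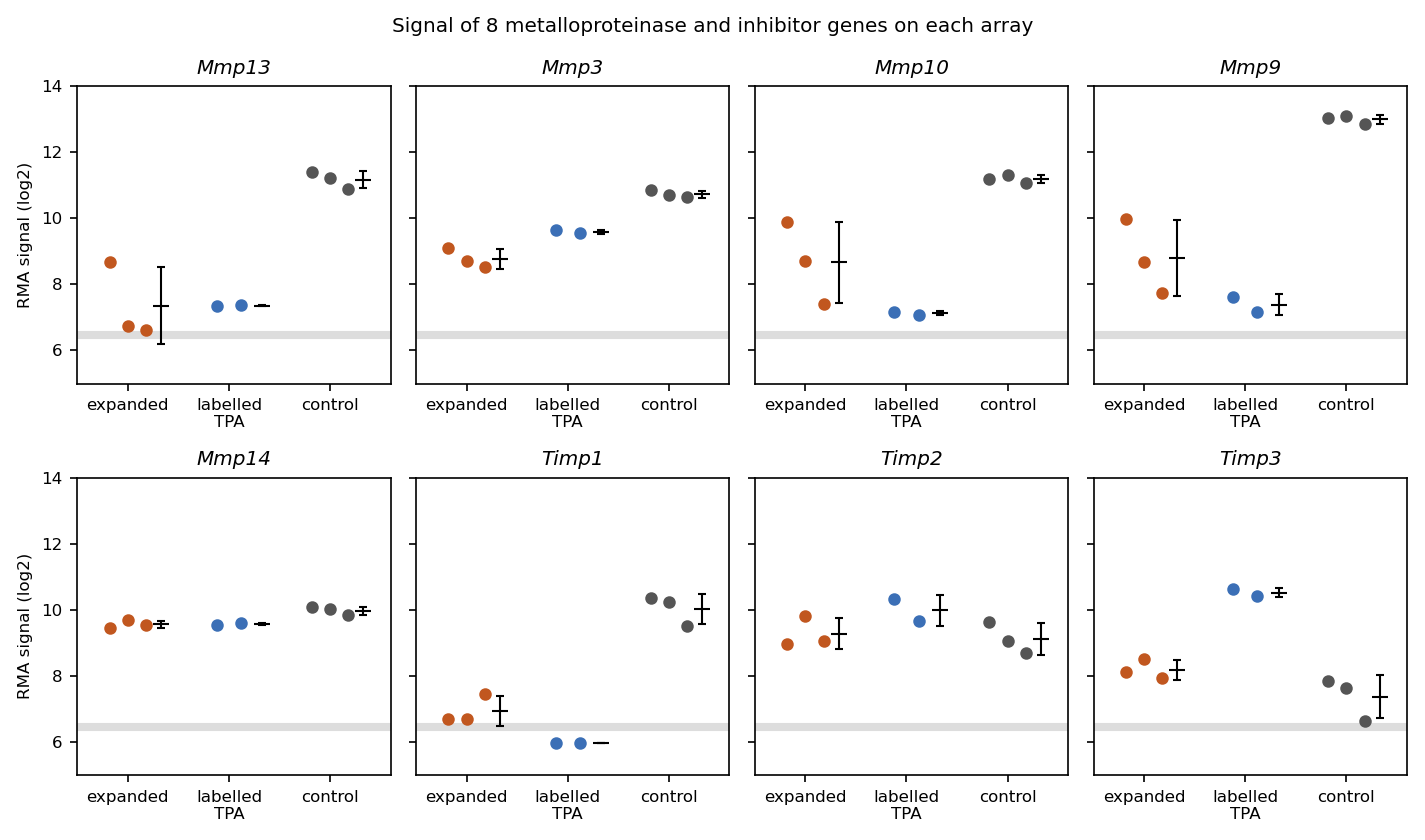
RMA signal (log2) of each gene on each array. Points are arrays of the 3 expanded, 2 TPA and 3 control mice, bars are mean ± SD, and the grey band spans the background limits of 6.37 to 6.55. The control arrays are the highest for Mmp13, Mmp3, Mmp10, Mmp9, Mmp14 and Timp1, and the TPA arrays are the highest for Timp3.

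Mmp13 encodes a collagenase that cuts fibrillar collagens. Its signal was 8.69, 6.73 and 6.62 in expanded arrays, 7.34 and 7.38 in TPA arrays, and 11.39, 11.23 and 10.89 in control arrays. All control arrays lay above all others, and the expanded arrays fell on both sides of the TPA arrays. Expanded replicates 2 and 3 lay just above their background limits of 6.369 and 6.555. The difference was -3.83 ± 0.47 (SE) between expanded and control arrays, which is 14.2-fold lower (adjusted p = 0.00136, limma). It was -3.81 ± 0.53 between TPA and control arrays (adjusted p = 0.00121). Expanded and TPA arrays differed by -0.02, with a 95% interval of -1.23 to 1.19, so a difference of 2-fold either way was not resolved.

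Mmp3 encodes stromelysin, which cuts a broad range of matrix proteins and activates other metalloproteinase precursors. It had 9.10, 8.71 and 8.51 in expanded arrays, 9.64 and 9.55 in TPA arrays, and 10.85, 10.70 and 10.64 in control arrays. No 2 groups overlapped, and the order was expanded, TPA and control from low to high. Mmp3 was lower by a difference of -1.95 ± 0.14 in expanded than in control arrays (adjusted p = 0.000103, limma) and by -1.14 ± 0.16 in TPA than in control arrays (adjusted p = 0.00117). It was the one protease of the 5 that passed between the treated groups, at -0.82 ± 0.16 for expanded minus TPA (adjusted p = 0.0202). That call was lost without expanded replicate 2 (adjusted p = 0.0599), TPA replicate 1 (0.101) or TPA replicate 2 (0.0578), and in the fit of those 2 groups alone (0.0726).

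Mmp10 encodes a second stromelysin, known from the leading edge of wounded epidermis. Its signal was 9.88, 8.70 and 7.41 in expanded arrays, 7.17 and 7.08 in TPA arrays, and 11.19, 11.32 and 11.08 in control arrays. The expanded arrays were spread over more than a 4-fold range of signal, between the tight TPA and control groups. The difference was -2.53 ± 0.49 for expanded minus control (adjusted p = 0.0123, limma) and -4.07 ± 0.55 for TPA minus control (adjusted p = 0.00107), the last being 16.8-fold lower. Expanded arrays stood 1.54 ± 0.55 above TPA arrays, a difference that did not pass (adjusted p = 0.162) but did without expanded replicate 3 (2.17, adjusted p = 0.0147).

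Mmp9 encodes gelatinase B, which cuts basement membrane collagen and denatured collagen. It stood at 9.99, 8.67 and 7.73 in expanded arrays, 7.62 and 7.16 in TPA arrays, and 13.02, 13.09 and 12.85 in control arrays. The control values lie near the top of the scale, where the highest signal of any probe set was 13.7. Expanded minus control was -4.19 ± 0.46 (adjusted p = 0.000823, limma) and TPA minus control -5.60 ± 0.52 (adjusted p = 0.000133), which is 18.3-fold and 48.4-fold lower. The expanded arrays lay above both TPA arrays by a mean of 1.41 ± 0.52, which did not pass (adjusted p = 0.175) but did without expanded replicate 3 (1.94, adjusted p = 0.0376). On the dimmer probe set of Mmp9 these groups overlapped, at 7.71, 7.32 and 6.13 in expanded and 6.30 and 6.29 in TPA arrays. The difference there was 0.76 (adjusted p = 0.342, limma), with expanded replicate 3 and both TPA arrays under the background limit. That probe set was also called lower in both comparisons with control, at -4.55 and -5.31.

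Neutrophils and macrophages also make Mmp9, so their markers are given beside it. Of 10 such markers 6 were under the background limit on all 8 arrays, namely Ptprc, Itgam, Adgre1, Csf3r, Cxcr2 and Elane. Called lower in both comparisons with control were 2 of the 10, Cd14 and Cxcr2, and their part in the difference was not tested. Lyz2, the lysozyme gene, was at 8.25 and 7.12 in control replicates 1 and 3 and under the limit, at 5.07 to 5.38, on the other 6 arrays, and Cd68 was also highest in those 2 control arrays (7.75 and 7.88). The summed signal of the list was 9.27 to 9.35 in expanded arrays, 9.26 to 9.27 in TPA arrays and 9.38 to 10.12 in control arrays. In control replicates 1, 2 and 3 the sums were 10.12, 9.38 and 9.89, each above the sum of every expanded and TPA array. Mmp9 stood at 13.02, 13.09 and 12.85 in the same order. Without control replicate 1 the difference in Mmp9 was -4.17 for expanded minus control and -5.58 for TPA minus control, both still called lower. Control replicate 3 stayed in those fits, so they do not show the part of these cells, which was not tested.

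The expanded mice differed from one another in Mmp10, Mmp13 and Mmp9 far more than in most genes. The SD over the 3 expanded arrays was 1.24 for Mmp10, 1.16 for Mmp13 and 1.14 for Mmp9, while the median SD over all genes was 0.09. Only 0.0234% of genes had a larger SD than Mmp10 there, and 0.0409% a larger one than Mmp9. Expanded replicate 1 was the highest of the 3 for Mmp13, Mmp3, Mmp10 and Mmp9. Timp1 and Mmp14 did not show that order, as replicate 3 was highest for Timp1 and replicate 2 for Mmp14. Without expanded replicate 1 the differences from control were -4.50 for Mmp13, -3.14 for Mmp10 and -4.79 for Mmp9, and without expanded replicate 3 they were -3.47, -1.90 and -3.66 in the same order, all still called lower.

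Mmp14 encodes a metalloproteinase anchored in the cell membrane, which together with TIMP2 activates the precursor of MMP2. Its signal was 9.45, 9.68 and 9.54 in expanded arrays, 9.55 and 9.60 in TPA arrays, and 10.07, 10.01 and 9.84 in control arrays. The control arrays lay above the others, but by far less than for the secreted proteases. The difference was -0.42 ± 0.09 for expanded minus control (adjusted p = 0.0186, limma) and -0.40 ± 0.10 for TPA minus control (adjusted p = 0.0225), about 1.33-fold and 1.32-fold lower. Both calls depended on single arrays. The first was lost without control replicate 1 (adjusted p = 0.0579), control replicate 2 (0.0695), expanded replicate 1 (0.0679) or expanded replicate 3 (0.0604). The second was lost without control replicate 1 (0.0591), control replicate 2 (0.067), TPA replicate 1 (0.106) or TPA replicate 2 (0.067). The other probe set of Mmp14 was lower in both comparisons when tested by itself, at -0.52 (adjusted p = 0.00332) and -0.34 (adjusted p = 0.0213).

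Timp1 encodes an inhibitor that also binds the precursor of MMP9. It had 6.69, 6.68 and 7.46 in expanded arrays, 5.96 in both TPA arrays, and 10.34, 10.24 and 9.5 in control arrays. The expanded arrays lay just above the background limit and the TPA arrays under it. Expanded minus control was -3.09 ± 0.26, or 8.5-fold lower (adjusted p = 0.000218, limma). In TPA arrays Timp1 was lower than in control arrays by at least 3.55 on the log2 scale, counted from the limit (adjusted p = 3.59e-05).

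Timp2 encodes the inhibitor that takes part in the activation of MMP2. Its signal was 8.97, 9.81 and 9.06 in expanded arrays, 10.31 and 9.65 in TPA arrays, and 9.64, 9.05 and 8.68 in control arrays. The TPA arrays lay just above all control arrays, and the expanded arrays overlapped both groups. Expanded minus control was 0.16, with a 95% interval of -0.53 to 0.85 (adjusted p = 0.84, limma). TPA minus control was 0.86, with an interval of 0.08 to 1.63 (adjusted p = 0.118). All 5 probe sets of Timp2 were highest in expanded replicate 2 among the expanded arrays, in TPA replicate 1 among the TPA arrays and in control replicate 1 among the control arrays.

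Timp3 encodes an inhibitor that stays bound to the matrix and also blocks proteases of the ADAM family. It had 8.12, 8.5 and 7.92 in expanded arrays, 10.62 and 10.42 in TPA arrays, and 7.84, 7.63 and 6.62 in control arrays. No 2 groups overlapped, and the TPA arrays stood well above both others. TPA minus control was 3.16 ± 0.32, or 8.93-fold higher (adjusted p = 0.000233, limma). Expanded minus TPA was -2.34 ± 0.32 (adjusted p = 0.00528). Expanded minus control was 0.82 ± 0.29 and did not pass (adjusted p = 0.119), and it ranged from 0.45 without control replicate 3 to 1.06 without control replicate 1.

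The probe sets of Timp3 disagreed on that last comparison. Tested one by one, 2 of the 4 were called higher in expanded than in control arrays, at 0.44 (adjusted p = 0.0356) and 0.49 (adjusted p = 0.0285). The other 2, the brightest included, were not called, at 0.82 (adjusted p = 0.128) and 0.13 (adjusted p = 0.76). All 4 were called higher in TPA than in control arrays, by 2.49 to 3.16. The dimmer 3 probe sets were above the background limit on only 1 or 2 of the 3 control arrays, so their control means lie close to background.

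**Figure D2:**
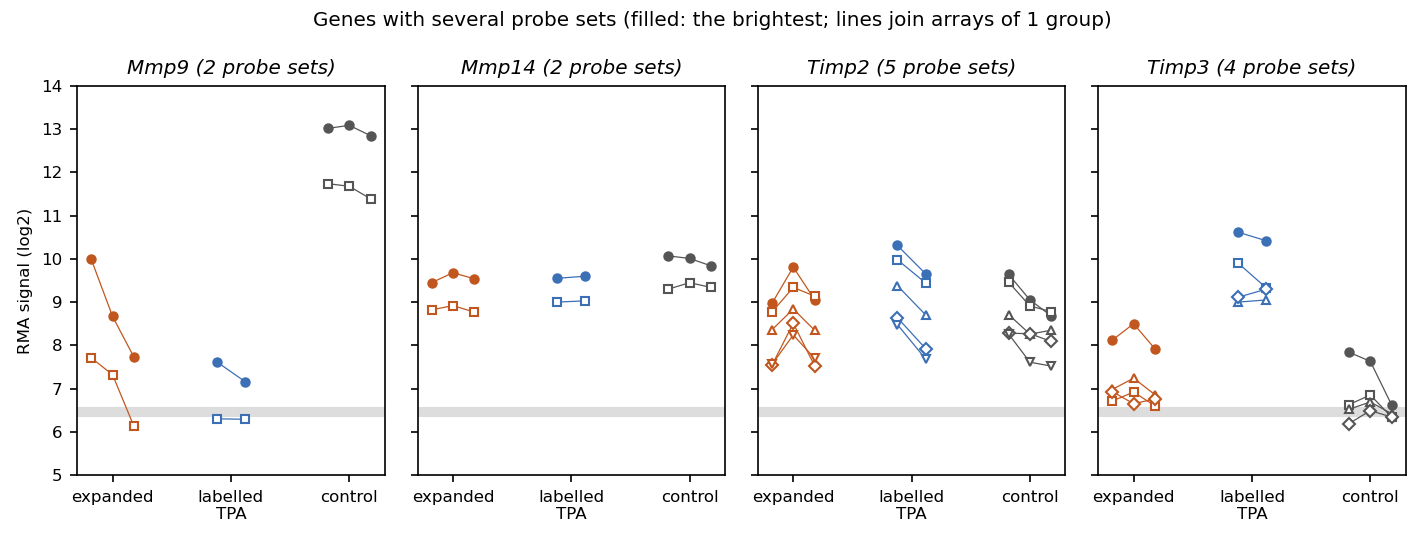
RMA signal (log2) of each probe set of the genes with several, on each expanded, TPA and control array. Filled points are the brightest probe set, lines join arrays of 1 group to show which array is high, and the grey band spans the background limits. The probe sets of Timp2 move together from array to array within a group.

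Fibroblasts are a known source of Timp3, and their markers are given beside its rise. Of 6 fibroblast markers 1, Dcn (decorin), was called higher in TPA than in control arrays (1.69 ± 0.23, adjusted p = 0.00117, limma) and none lower. The summed signal was 8.82 to 8.95 in expanded arrays, 9.32 to 9.53 in TPA arrays and 8.66 to 9.04 in control arrays. Col1a2, Lum and Pdgfra were under the background limit on all 8 arrays, and Col1a1 was at 6.65 and 6.71 in the TPA arrays, below the 8.12, 6.86 and 7.10 of the control arrays. The part of these markers in the rise of Timp3 was not tested.

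**Figure D3:**
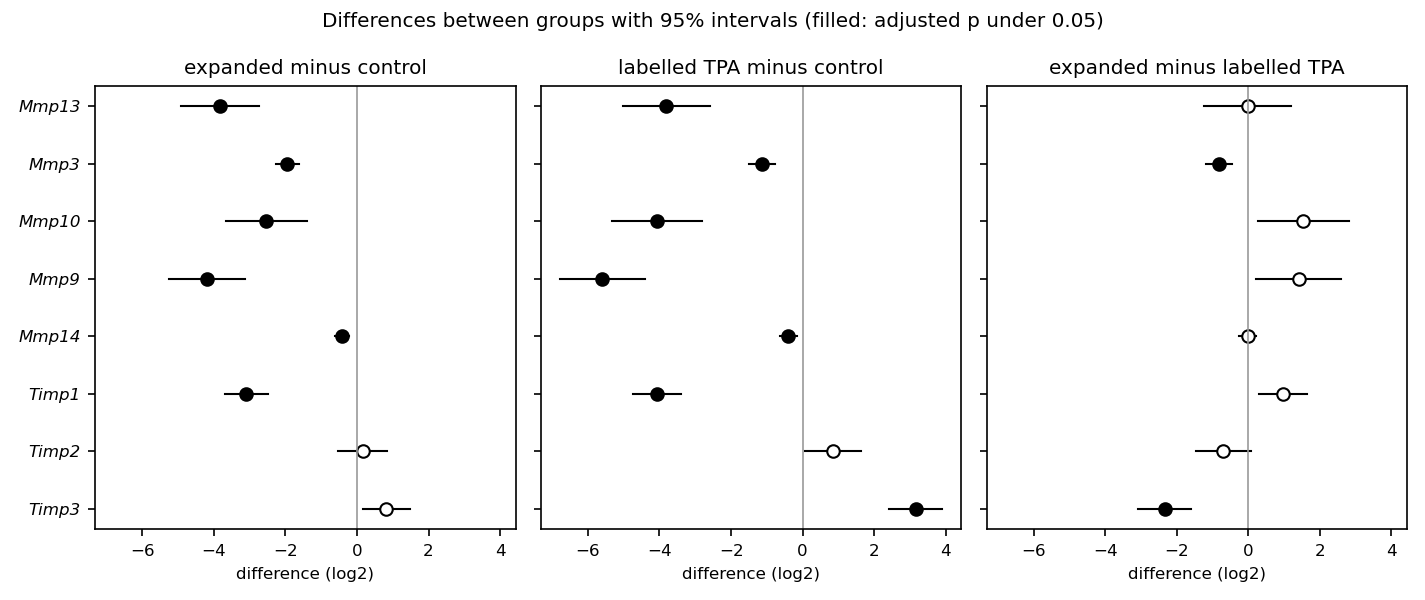
Difference in log2 signal for each gene in the 3 comparisons, with 95% intervals from limma, where filled points have an adjusted p under 0.05. Timp3 is higher in TPA than in control arrays, and 6 genes are lower in both comparisons with control.

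Between the treated groups, expanded minus TPA, 2 of 8 genes were called, Mmp3 and Timp3, both lower in expanded arrays, where 5.98% of all genes were called, 2.81% lower and 3.16% higher. The arrays of these groups did not overlap for 5 of the 8 genes, beside 35.7% of all genes. The 95% intervals for Mmp10 (0.28 to 2.80) and Mmp9 (0.22 to 2.59) lay above 0, but neither passed after adjustment. For Timp1, under the background limit in TPA arrays, expanded arrays were higher by at least 0.46, which did not pass (adjusted p = 0.0968, and 0.509 with signals raised to the limit). The count of 2 was 1 without expanded replicate 2 or either TPA array, and was 4 without expanded replicate 3, where Mmp10 and Mmp9 were called higher.

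Mmp13, Mmp3 and Mmp10 lie in a cluster of metalloproteinase genes on mouse chromosome 9, in the order Mmp13, Mmp12, Mmp1b, Mmp3, Mmp1a, Mmp10, Mmp8, Mmp27, Mmp20 and Mmp7. Of these 10 genes 9 were measured. The 6 genes from Mmp13 to Mmp10 were all called lower in expanded and in TPA arrays than in control arrays. Of all genes 5.78% were lower in expanded arrays and 10.6% in TPA arrays. Mmp13, Mmp3 and Mmp10 are already counted among the 8 genes above. The 3 measured genes on the far side were not called in either comparison. Mmp1b, one of the rodent counterparts of interstitial collagenase, had 5.01, 5.07 and 5.01 in expanded arrays, 4.73 and 4.57 in TPA arrays, and 7.52, 7.44 and 6.93 in control arrays. It was thus above background only in control skin, and lower by at least 0.83 in expanded arrays (adjusted p = 5.82e-05, limma) and at least 0.82 in TPA arrays (adjusted p = 1.49e-05). Mmp12 and Mmp1a were under the background limit in every group, as were Mmp8, Mmp20 and Mmp7, so their levels show little. The call of Mmp1a was lost without expanded replicate 2 or 3 (adjusted p up to 0.0636) and without TPA replicate 2 (adjusted p = 0.0513), and that of Mmp12 in TPA arrays without TPA replicate 1 (adjusted p = 0.0534).

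**Figure D4:**
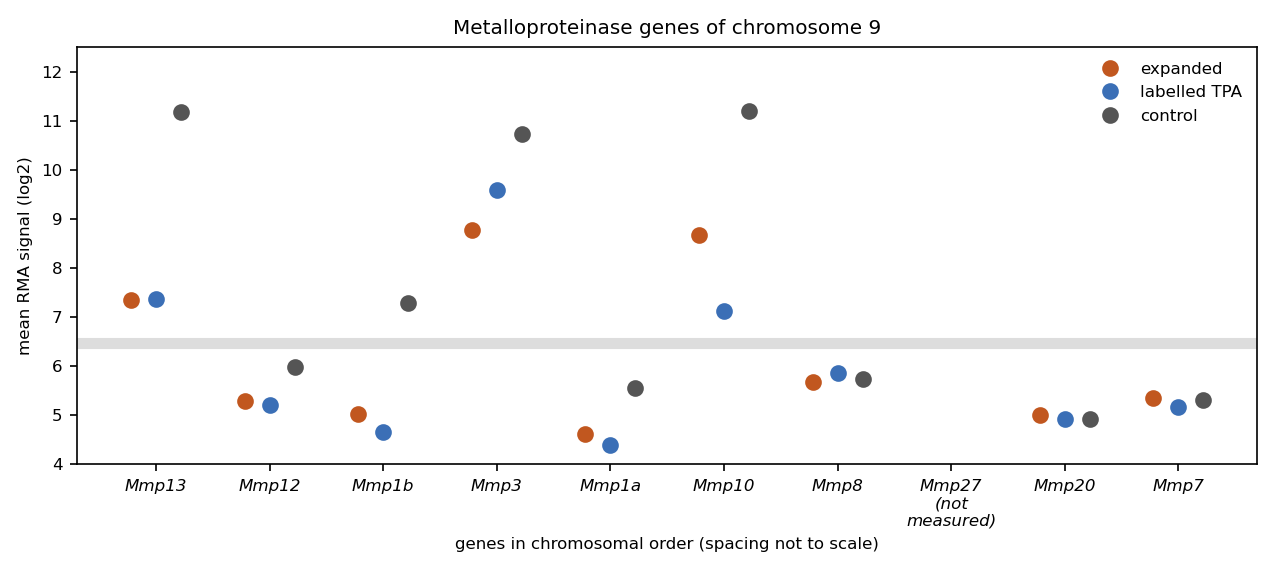
Mean RMA signal (log2) in expanded, TPA and control arrays of the metalloproteinase genes of chromosome 9, in chromosomal order with spacing not to scale. The grey band spans the background limits. Mmp13, Mmp1b, Mmp3 and Mmp10 stand above it in control arrays, while Mmp8, Mmp20 and Mmp7 lie under it in each group.

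The sequences just upstream of these genes are shown because Mmp13, Mmp3 and Mmp10 fell together and the phorbol ester response of such genes is classically assigned to an AP-1 element. RefSeq windows of 300 bases, from 250 before to 50 after the start of the gene, in build GRCm38.p6, were found for 7 of the 8 genes. None was found for Mmp9, whose promoter was therefore not searched. The 7 windows were searched for the letters TGAGTCA, the AP-1 consensus, on both strands (TGACTCA on the other). Matches are in capitals, and each sequence reads 5′ to 3′ on the strand of its gene.
Mmp13 promoter (chr9:7272264-7272563, plus strand): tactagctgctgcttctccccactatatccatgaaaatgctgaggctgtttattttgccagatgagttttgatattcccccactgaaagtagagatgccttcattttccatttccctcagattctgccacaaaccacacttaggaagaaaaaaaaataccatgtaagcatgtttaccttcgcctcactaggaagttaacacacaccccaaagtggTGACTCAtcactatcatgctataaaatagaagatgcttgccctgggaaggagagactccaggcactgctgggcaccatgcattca
Mmp3 promoter (chr9:7445572-7445871, plus strand): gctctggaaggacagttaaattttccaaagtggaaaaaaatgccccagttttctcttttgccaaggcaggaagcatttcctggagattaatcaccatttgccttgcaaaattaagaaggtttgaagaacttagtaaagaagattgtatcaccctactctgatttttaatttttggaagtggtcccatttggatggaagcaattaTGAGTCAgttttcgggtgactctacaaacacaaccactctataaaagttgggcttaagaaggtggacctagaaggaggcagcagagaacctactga
Mmp10 promoter (chr9:7502092-7502391, plus strand): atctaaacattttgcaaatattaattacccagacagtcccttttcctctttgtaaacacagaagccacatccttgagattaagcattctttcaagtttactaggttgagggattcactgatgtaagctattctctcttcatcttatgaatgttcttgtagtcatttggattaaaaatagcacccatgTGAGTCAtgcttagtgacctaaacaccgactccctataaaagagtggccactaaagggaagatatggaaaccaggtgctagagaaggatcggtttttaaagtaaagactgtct
Timp1 promoter (chrX:20869916-20870215, plus strand): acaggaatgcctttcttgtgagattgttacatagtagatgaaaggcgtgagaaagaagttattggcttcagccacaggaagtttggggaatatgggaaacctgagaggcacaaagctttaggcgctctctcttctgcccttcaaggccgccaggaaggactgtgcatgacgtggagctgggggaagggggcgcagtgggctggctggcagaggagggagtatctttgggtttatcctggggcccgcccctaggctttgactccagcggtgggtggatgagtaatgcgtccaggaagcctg
Timp3 promoter (chr10:86300162-86300461, plus strand): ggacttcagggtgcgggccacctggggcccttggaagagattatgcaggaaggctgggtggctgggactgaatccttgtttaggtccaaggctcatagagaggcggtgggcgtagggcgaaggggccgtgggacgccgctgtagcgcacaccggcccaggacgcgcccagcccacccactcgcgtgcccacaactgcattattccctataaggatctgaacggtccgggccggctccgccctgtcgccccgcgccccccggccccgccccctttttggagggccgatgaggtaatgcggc

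The AP-1 letters occurred once in each of the Mmp13, Mmp3 and Mmp10 windows, beginning 35, 46 and 63 bases before the start. They were in none of the windows of Mmp14, Timp1, Timp2 and Timp3. Of 32851 promoter windows of that length, 5.2% held them. The letters TATAAA, or TTTATA on the other strand, were found downstream of the AP-1 letters in the same 3 windows and in none of the other 4, with no overlap between the motifs, and 13.6% of all windows held them. The 2 stromelysin windows and that of Mmp13 had 37.7% to 43.7% G and C, against 55.0% in Timp1 and 67.0% in Timp3. A match of letters is a description of the sequence, and binding was not measured. Only these exact letters were searched, so variants of the element, in the Timp1 window or any other, were not counted.

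Genes for transcription factors that are known to bind metalloproteinase promoters were given the same test. This list and those that follow were chosen with earlier results of these data known, so their counts are a description. Of 18 measured factor genes, 1 was higher and 3 were lower in expanded than in control arrays, with a median difference of -0.04. In TPA arrays 10 were higher and 4 lower than in control arrays, with a median of 0.41. Of all genes 5.69% were higher and 5.78% lower in expanded arrays, and 10.2% and 10.6% in TPA arrays. Jun (1.20 ± 0.12, adjusted p = 0.000171, limma), Atf3 (1.17 ± 0.12) and Jund (0.77 ± 0.10), which encode AP-1 and related factors, rose there, while Mmp13, Mmp3 and Mmp10 fell. The 1 higher gene in expanded arrays was Jund (0.32 ± 0.09, adjusted p = 0.0461), a call lost in 7 of the 8 fits that each drop an array. Fosl1, an AP-1 subunit of epidermis, was lower in expanded arrays (-0.79 ± 0.12, adjusted p = 0.00398) and higher in TPA arrays (0.50, adjusted p = 0.0326), the last a call lost in 6 of those 8 fits. Runx1 and Ets1 were lower in both, by -0.41 ± 0.06 and -1.14 ± 0.16 in expanded arrays and by -0.79 ± 0.07 and -1.10 ± 0.17 in TPA arrays. Without TPA replicate 2, 6 were higher and 3 lower in TPA arrays.

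**Figure D5:**
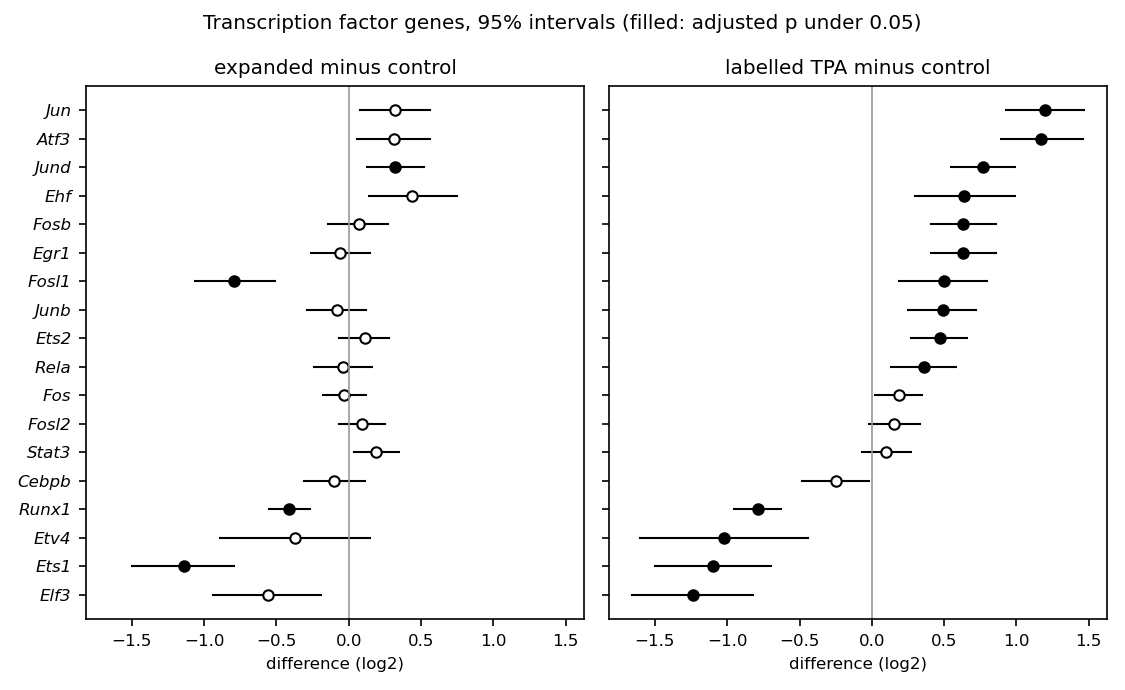
Difference in log2 signal of 18 transcription factor genes for expanded minus control (left) and TPA minus control (right), with 95% intervals from limma and filled points where the adjusted p is under 0.05. Jun, Atf3 and Jund are higher in TPA arrays, and Runx1 and Ets1 are lower in both.

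Ligands that are known to induce metalloproteinases, also chosen with earlier results of these data known, were lower or did not pass. Of 18 measured ligand genes, 9 were lower and 0 higher in expanded than in control arrays, and likewise 9 and 0 in TPA arrays, with medians of -0.87 and -0.71, where 5.78% and 10.6% of all genes were lower. Inhba, the activin subunit, was at -2.76 ± 0.20 in expanded minus control (adjusted p = 0.000114, limma) and -5.17 ± 0.23 in TPA minus control (adjusted p = 3.26e-06). Tgfa, a ligand of the EGF receptor, was at -2.10 ± 0.18 and -3.18 ± 0.20 in the same comparisons. Ereg, another such ligand, fell under the background limit in both, by at least 1.55 and at least 1.54. Under the limit in both groups were 7 of the 18. Il1a is among them, though it was called lower in both comparisons. The 9 calls in TPA arrays were 8 without TPA replicate 1 or 2.

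Among the other metalloproteinase genes, 13 of 18 listed were measured, and 7 of them were under the background limit in both groups of either comparison with control. In expanded arrays 1 was higher and 4 were lower than in control arrays, with a median of -0.07, and in TPA arrays 3 were higher and 4 lower. The 4 lower genes in each were Mmp1b and, under the background limit, Mmp1a, Mmp12 and Mmp16. The shares of all genes called were 5.69% higher and 5.78% lower in expanded arrays, and 10.2% and 10.6% in TPA arrays. The call of Mmp16 in expanded arrays (-0.26, adjusted p = 0.041) was lost in 8 of the 8 fits that each drop an array, and that in TPA arrays (-0.30, adjusted p = 0.0237) without control replicate 1 or 3 or either TPA array. Mmp2, the gelatinase whose precursor MMP14 activates, went the other way from Mmp9. It had 8.81, 8.82 and 8.57 in expanded arrays, 9.48 and 9.57 in TPA arrays, and 7.52, 7.69 and 7.23 in control arrays. These groups did not overlap. Fibroblasts also make Mmp2, and the part of their markers, given with Timp3, was not tested. Mmp2 was higher by 1.25 ± 0.12 in expanded arrays (adjusted p = 0.000501, limma) and by 2.04 ± 0.14 in TPA arrays (adjusted p = 2.66e-05). Mmp17, a membrane-anchored enzyme, was higher in TPA arrays by 0.79 ± 0.21 (adjusted p = 0.0296), a call lost without TPA replicate 2 or any control array (differences of 0.37 to 1.21 over the 8 fits), and Mmp24 by 0.37 ± 0.10, lost on leaving out any control array, expanded replicate 2 or TPA replicate 1. Mmp19 and Mmp23 did not pass in any comparison. The 5 calls of this list in expanded arrays were 3 without expanded replicate 2 or 3, and the 7 in TPA arrays were 4 without control replicate 1 or 3 or either TPA array.

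In a list of 19 measured inhibitors, activators and receptors of the system, 1 was higher and 6 were lower in expanded arrays, and 1 was higher and 8 lower in TPA arrays, with medians of -0.23 and -0.30, beside the same shares of all genes. The urokinase gene Plau, whose product starts the plasmin cascade that can activate metalloproteinases, was at -1.23 ± 0.12 and -1.50 ± 0.14. Its receptor Plaur was at -1.45 ± 0.11 (adjusted p = 0.000145, limma) and -2.03 ± 0.13 (adjusted p = 1.79e-05), and the protease Ctsl, cathepsin L, at -0.65 ± 0.06 and -0.96 ± 0.07. The 1 higher gene was Thbs2, a matrix glycoprotein, at 0.70 ± 0.16 and 1.30 ± 0.17. The first of these was lost without control replicate 3 or expanded replicate 1 or 2 (adjusted p up to 0.0765). The 7 called genes in expanded arrays were 3 without control replicate 3, expanded replicate 1 or expanded replicate 2, and 4 without expanded replicate 3.

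Of 19 measured substrate genes, 6 were lower and 0 higher in expanded arrays, and 6 lower and 2 higher in TPA arrays, with medians of -0.29 and -0.28, where 5.78% and 10.6% of all genes were lower. The laminin chains Lama3 and Lamb3, which anchor basal cells, were at -0.92 ± 0.08 and -0.96 ± 0.07 in expanded minus control and at -1.30 ± 0.09 and -1.25 ± 0.08 in TPA minus control. Tnc, the matrix glycoprotein tenascin C, was at -0.87 ± 0.07 and -0.72 ± 0.08. The 2 higher genes in TPA arrays were Dcn and Col7a1 (0.27, adjusted p = 0.0453), and the call of Col7a1 was lost in 6 of the 8 fits that each drop an array. Col7a1 was named after its value was seen. The 6 calls of this list in expanded arrays were 4 without expanded replicate 1 or 3. The 8 calls in TPA arrays were 6 without control replicate 3 or either TPA array.

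By Pearson correlation over the 8 arrays, with 879 genes whose group means span at least 1, the nearest to Mmp10 was Mmp9 (r = 0.982). Nearest to Mmp9 were Tubb2a (0.989), Neu2 (0.987) and Endod1 (0.986), to Mmp13 Ndrg4 (0.985), to Mmp3 Acsbg1 (0.972) and to Mmp14 Ets1 (0.984). For Timp1 they were Trp53i11 (0.995), Fam167a (0.993) and Ereg (0.991), for Timp3 Tob1 (0.977), Klhl24 (0.976) and Ptger4 (0.974), and for Timp2 the nearest, Plagl1, reached 0.886. All these points come from the same 8 arrays in 3 groups, so the values mostly describe the group means.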

How the data were processed

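The deposited values are log2 signals made by the authors with RMA, as named without a version in the submitters' processing notes. Per the labels' protocols, cDNA of 300 sorted cells was amplified for 25 cycles. The table held 45141 probe sets, of which 28898 had 1 gene symbol, 551 had several and 104 were array controls, and 0 columns of other samples. Array medians over all probe sets were 6.47 to 6.53. RMA sets arrays to a common distribution, so a change of total RNA cannot show, and the number of arrays limits the precision. Symbols were updated by gene identifier, except for 161. Each gene took the probe set with the highest mean. limma 3.58.1 in R 4.3.3 fitted 1 mean per group over 8 arrays (5 residual and 3.54 prior degrees of freedom), with Benjamini-Hochberg adjustment over 17097 genes for each comparison, and was tested on simulated data. Where a group lay under the background limit on all its arrays, the bound is the brighter mean minus the limit. The genes, lists and tests were chosen with earlier results of these data known. Named are the 8 genes, up to 4 list genes with the smallest p per list and comparison, other metalloproteinases, markers, and the nearest genes by correlation. Alternatives were quantile normalization, median centring, a filter on dim genes, signals raised to the limit, the mean of probe sets, single probe sets, trended robust eBayes, array weights, only 2 groups, a replicate block and each array left out. No pair of arrays held identical values. Labels number the arrays of each group as biological replicates, read here as separate mice. Replicate numbers were not used to pair arrays across groups. Residuals of same-numbered arrays correlated at -0.18 to 0.03.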

Additional observations from a re-analysis of the deposited data

How the results depend on the processing

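Of the alternatives, those that move whole-array scaling (quantile normalization, median centring), leave out dim genes, raise signals to the background limit, trend the variance or weight arrays kept the 6 lower calls of expanded minus control and the 7 calls of TPA minus control. Testing each probe set by itself and asking for every one of a gene's probe sets gave 1146 genes called in expanded minus control, 2293 in TPA minus control and 545 in expanded minus TPA, against 1960, 3559 and 1022. Fitting only the 2 groups compared gave 511 genes and 1 of the 8 genes in expanded minus TPA. With the replicate number as a block, which the main fit leaves out, expanded minus TPA had 541 genes, Mmp13 0.24 and Mmp14 0.02. In that fit Timp3 passed in expanded minus control (0.82, adjusted p = 0.0406, limma). Averaging over probe sets also called Timp3 there (0.47, adjusted p = 0.0479) and put Timp2 at -0.01, and its probe set of most negative difference put Timp2 at -0.35. Quantile normalization put Mmp13 at 0.01 in expanded minus TPA. Leaving out 1 array at a time, the genes called ranged from 1261 to 2076 in expanded minus control and from 560 to 922 in expanded minus TPA, where 1 to 4 of the 8 were called. The lowest gene count in the first was without control replicate 2, and those of 636 or fewer in the second were without expanded replicate 2 (636), expanded replicate 3 (560) or TPA replicate 1 (568). Without 1 array Timp2 ranged from -0.11 to 0.42 in expanded minus control, and in expanded minus TPA Mmp13 ranged from -0.69 to 0.35 and Mmp14 from -0.08 to 0.03. The cause of these changes was not tested, apart from the fewer arrays in fits that drop some. Counts of the gene lists with 1 array left out were chosen after seeing the data. Signal over background limits Timp1 in TPA arrays, which has only a bound, and 3 probe sets of Timp3 in control arrays. It also limits the dimmer probe set of Mmp9 in TPA arrays and expanded replicate 3. Timp1 in expanded arrays and Mmp13 in expanded replicates 2 and 3 lie close to the limit.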
